A study of Mus musculus with 16 samples.

Results

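Nuclear RNA was compared between differentiating and undifferentiated female mouse embryonic stem (ES) cells of the cross CAST/Ei x 129/Sv/Jae. The day 3 cells had been kept without LIF in non-adherent culture for 3 days, and the day 0 cells had been kept with LIF in adherent culture. Both carried the same strain and sex labels, and neither RNA-seq library had an antibody step. RNA came from nuclear lysate taken during the crosslinking immunoprecipitation (CLIP) protocol before sonication. It was depleted of ribosomal RNA and made into strand-specific libraries with dUTP. There was 1 library per day, so the difference between days had no replicate check and no test was run.

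The compared units were rows of the 2 deposited transcript lists, of at least 300 bp and with a single transcript ID. A day 3 row and a day 0 row on one strand were paired when their overlap covered at least 50% of the shorter row and each was the other's best partner. This gave 11044 pairs, out of 17333 such rows at day 3 and 25354 at day 0. The lists held 28680 rows at day 3 and 40674 at day 0 in all. The level of a row is in FPKM (fragments per kilobase of transcript, scaled to the mapped fragments of the library), and read depth was not recoverable from it. A change is the log2 ratio of day 3 to day 0 after 1 FPKM was added to each, which understates the change of low rows. "Higher" and "lower" mean a change of at least 1 or at most -1 among the 9974 pairs that averaged at least 1 FPKM over both days. Coordinates are in mouse build mm9.

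LIF is the cytokine that, through Stat3, keeps mouse ES cells self-renewing. After its withdrawal the cells leave the naive state, a state marked by factors such as Zfp42, Klf4, Esrrb and Dppa3, and pass through a formative stage at which Fgf5, Otx2 and the de novo DNA methyltransferases are switched on, before committing to germ layers. Nuclear RNA without poly(A) selection holds unspliced precursors, introns and regulatory RNAs beside mature transcripts, so many of its rows are fragments of longer transcription units.

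The nuclear RNA of the day 3 cells held more of 1767 paired rows and less of 502, 17.7% and 5.03% of the pairs with at least 1 FPKM on average. The median change over all 9974 pairs was 0.32. It differed between kinds of row, so each single change below is to be read against the median of its own kind. Assembled rows, which the authors' assembly had made without a reference transcript, formed 7960 pairs, with a median change of 0.39. Of these, 19.2% were higher at day 3 and 3.39% lower. Annotated rows, which carried the same reference transcript ID at both days, formed 1352 pairs. Their median change was 0.11, with 9.54% higher (129 pairs) and 6.21% lower (84 pairs). The 662 mixed pairs, annotated at 1 day only or under different IDs, had a median of -0.07, with 16.5% higher and 22.4% lower. Among annotated pairs the median level was 4.01 FPKM at day 3 and 3.51 FPKM at day 0, and among assembled pairs 12.7 FPKM at day 3 and 9.30 FPKM at day 0.

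**Figure D1:**
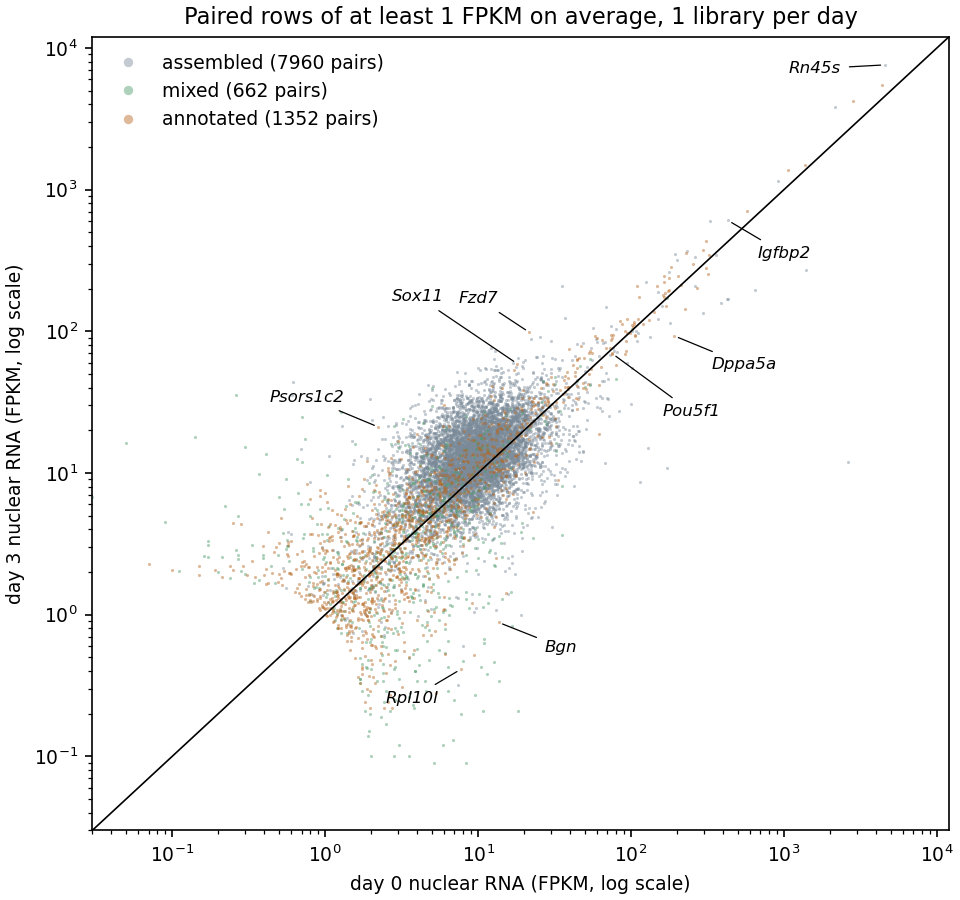
Level of each of the 9974 paired rows in nuclear RNA at day 3 (y axis) against day 0 (x axis), both in FPKM on log scales, coloured by kind of row. The line marks equal levels. Most assembled pairs (grey) lie above it, and their median change is 0.39, while annotated pairs (brown) centre nearer to it at 0.11.

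Of the pairs with at least 1 FPKM on average, 187 could be given a gene name from known mm9 positions or from the length and spacing of RefSeq genes, and 181 of these were annotated pairs. The named set held 24 higher genes and 20 lower genes, 12.8% and 10.7% of it, against 9.54% and 6.21% of all annotated pairs. Some loci were named because their changes were among the largest or smallest, so these are not the shares of an unselected set. The median over the named set was 0.15. After subtraction of the 0.32 median of all pairs, 14 of the 24 higher genes remained higher and 7 more genes passed -1. All 20 lower genes remained lower, as they had to after subtraction of a positive value. The 10 that dropped out were B2m, Ier5, Lamp3, Tusc1, Fv1, Aqp5, Gm10575, Magel2, Nhlrc1 and Ifi27l2b. Their changes before subtraction ran between 1.01 (Ifi27l2b) and 1.31 (B2m). Annotated pairs, which most named genes were, had a smaller median of 0.11, and subtraction of that value was not run.

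**Figure D2:**
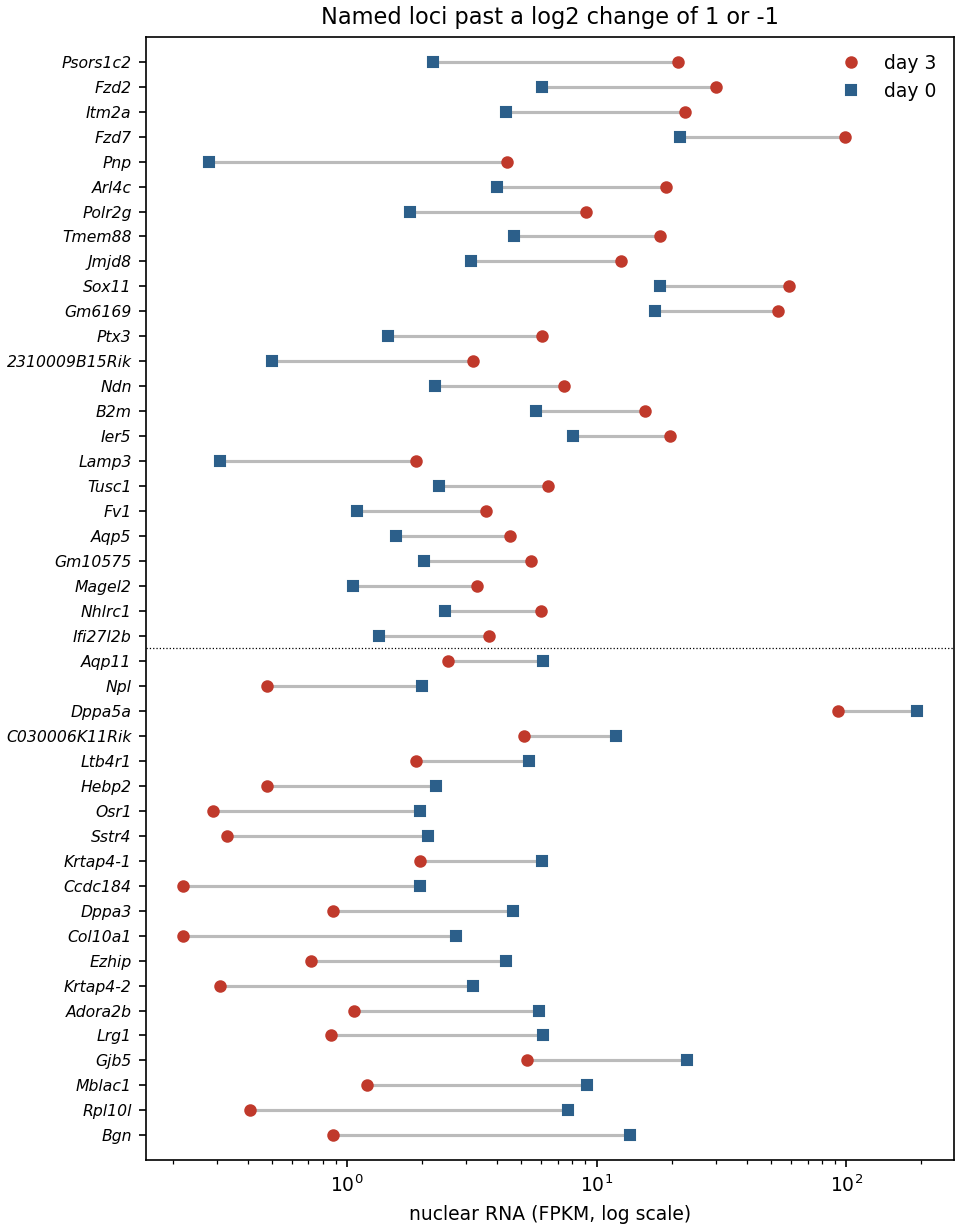
Nuclear RNA level at day 3 (red circles) and day 0 (blue squares) for the 44 named loci with a log2 change of at least 1 (above the dotted line) or at most -1 (below it), on a log FPKM axis, ordered by change after 1 FPKM was added. Psors1c2 has the largest increase, 21.1 FPKM at day 3 and 2.22 FPKM at day 0, and Bgn the largest decrease, 0.88 FPKM at day 3 and 13.6 FPKM at day 0.

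Of the listed pluripotency genes, 1 general gene and 2 naive-state genes were in single-ID pairs. Pou5f1 encodes Oct4, the transcription factor that naive and formative cells both need, and its row (chr17:35642982-35647721, plus strand) stood at 69.4 FPKM at day 3 and 75.6 FPKM at day 0. The change of -0.12 left Oct4 RNA at nearly the same level. Dppa5a, an RNA-binding protein gene of undifferentiated cells (chr9:78214859-78215984, minus strand), had 92.7 FPKM at day 3 and 192 FPKM at day 0, a change of -1.04. Dppa3 (also called Stella), a maternal factor that limits DNA methylation and marks the naive state, had 0.88 FPKM at day 3 and 4.62 FPKM at day 0, a change of -1.58. The Dppa3 pair was mixed, with rows of 3863 bp at day 3 and 3520 bp at day 0. Lower pairs made up 22.4% of mixed pairs and 6.21% of annotated pairs. Both Dppa genes were thus lower at day 3, while Oct4 was not. With pooled rows admitted, both the general and the naive-state list held genes in each direction. Gdf3, a TGF-beta family ligand of stem cells, had 29.4 FPKM at day 3 and 26.2 FPKM at day 0. Foxd3, a forkhead repressor needed for the exit from the naive state, had 24.1 FPKM at day 3 and 15.4 FPKM at day 0, a change of 0.61 that did not reach the threshold. Utf1, Nanog and most other pluripotency genes were not in single-ID pairs and are given with the pooled rows further on.

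Of the 2 early differentiation genes in single-ID pairs, Sox11 was higher. Sox11, a SoxC transcription factor of neural and epiblast progenitors (chr12:28025562-28027574, minus strand), had 59.1 FPKM at day 3 and 18 FPKM at day 0, a change of 1.66. Sox3, an X-linked SoxB1 factor of neural progenitors, had 10.5 FPKM at day 3 and 6.07 FPKM at day 0, a change of 0.70, below the threshold. The Sox3 pair was mixed, with rows of 2210 bp at day 3 and 2061 bp at day 0. The other forkhead genes Foxd1, Foxc1 and Foxb1 had changes between -0.01 and 0.75. Of the 4 named forkhead genes none was higher or lower. Insm2 and Nkx2-3, transcription factor genes of endocrine and gut tissue, had changes of -0.32 and 0.22.

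Both named Frizzled genes, which encode receptors for Wnt ligands, were among the largest increases. Fzd7, the Frizzled receptor best known from ES cells (chr1:59538991-59543791, plus strand), had 98.6 FPKM at day 3 and 21.5 FPKM at day 0, a change of 2.14. Fzd2 (chr11:102465745-102469372, plus strand) had 30.2 FPKM at day 3 and 6.02 FPKM at day 0, a change of 2.15. Each is a gene without introns, so its row measures a whole transcription unit at both days. Tmem88, a membrane protein that inhibits Wnt signalling through Dishevelled, had 17.9 FPKM at day 3 and 4.66 FPKM at day 0, a change of 1.74. Fzd7 and Tmem88 were in no gene list. Loci outside the lists were named by position for their rank or after their values were seen. The shared rise of these genes is therefore not a result about the pathway.

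The largest increase of a named gene, with 1 FPKM added, was at Psors1c2, a small secreted protein gene of the major histocompatibility region (chr17:35670146-35671592, plus strand), downstream of Pou5f1 on the same strand. It had 21.1 FPKM at day 3 and 2.22 FPKM at day 0, a change of 2.78. Psors1c2 was thus higher, while Pou5f1 stayed near its day 0 level. A further increase was seen at Itm2a, a type II membrane protein gene (22.6 FPKM at day 3, 4.33 FPKM at day 0). Its pair was mixed, and 16.5% of mixed pairs were higher. Arl4c, a small GTPase gene, was also higher, with 18.9 FPKM at day 3 and 3.99 FPKM at day 0. Polr2g, which encodes an RNA polymerase II subunit, had 9.08 FPKM at day 3 and 1.78 FPKM at day 0. Pnp, the purine nucleoside phosphorylase gene, had 4.38 FPKM at day 3 and 0.28 FPKM at day 0. With 0.1 FPKM added in place of 1, the change of Pnp was 3.56, larger than the 3.19 of Psors1c2. B2m, the light chain of class I histocompatibility molecules, had 15.7 FPKM at day 3 and 5.73 FPKM at day 0. The aquaporin genes moved apart, with Aqp5 at 4.5 FPKM at day 3 and 1.57 FPKM at day 0, and Aqp11 at 2.53 FPKM at day 3 and 6.09 FPKM at day 0.

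The imprinted Prader-Willi region on chromosome 7 had 4 named single-ID pairs, all genes expressed from the paternal allele in most tissues. Ndn, which encodes the MAGE protein necdin (chr7:69493163-69494814, plus strand), had 7.39 FPKM at day 3 and 2.25 FPKM at day 0, a change of 1.37. Magel2, its MAGE-family neighbour (chr7:69521865-69526526, plus strand), had 3.32 FPKM at day 3 and 1.06 FPKM at day 0, a change of 1.07. Mkrn3, a makorin ubiquitin ligase gene (chr7:69562479-69565039, minus strand), had 4.33 FPKM at day 3 and 4.24 FPKM at day 0. Peg12, also called Frat3, a GSK3-binding protein gene (chr7:69606757-69609396, minus strand), had 3.98 FPKM at day 3 and 4.83 FPKM at day 0. The plus-strand genes Ndn and Magel2 were higher, and the minus-strand genes Mkrn3 and Peg12 had changes of 0.02 and -0.23.

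CTCF is the zinc finger protein that folds chromatin into loops, and the series mapped it on DNA by ChIP with 1 library at day 3 and 2 at day 0. A CTCF ChIP peak lay within 1 kb of the row's start in all 3 libraries at 31 of the 187 named genes, among them Psors1c2 and Magel2. The share of all pairs with a peak in all 3 libraries was not computed. Of annotated pairs neither higher nor lower, 14.6% had a peak in the day 3 library. In the day 0 libraries 12.3% and 26.1% of them had one. At Peg12 a peak lay there in the day 3 library and in 1 of the day 0 libraries, and at Bgn in none. The promoters of these 4 genes are shown because they cover the largest increase and decrease with 1 FPKM added and both outcomes within the imprinted region. Each runs 250 bases before to 50 after the gene start, 5′ to 3′ on the gene's strand, from RefSeq in build GRCm38.p6, whose coordinates are not those of mm9: chr17:35532951-35533250 (plus strand) for Psors1c2, chr7:62376729-62377028 (plus) for Magel2, chr7:62464461-62464760 (minus) for Peg12 and chrX:73483351-73483650 (plus) for Bgn. Capitals mark CCCTC or its reverse complement GAGGG, the letters after which CTCF is named, and TATAAA or TTTATA, the TATA element; neighbouring matches may overlap.
Psors1c2: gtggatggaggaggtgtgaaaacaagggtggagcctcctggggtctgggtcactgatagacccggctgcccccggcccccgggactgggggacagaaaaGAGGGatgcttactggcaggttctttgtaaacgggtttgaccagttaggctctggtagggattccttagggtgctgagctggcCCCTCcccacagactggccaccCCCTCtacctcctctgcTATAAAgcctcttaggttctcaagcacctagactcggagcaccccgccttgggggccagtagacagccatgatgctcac
Magel2: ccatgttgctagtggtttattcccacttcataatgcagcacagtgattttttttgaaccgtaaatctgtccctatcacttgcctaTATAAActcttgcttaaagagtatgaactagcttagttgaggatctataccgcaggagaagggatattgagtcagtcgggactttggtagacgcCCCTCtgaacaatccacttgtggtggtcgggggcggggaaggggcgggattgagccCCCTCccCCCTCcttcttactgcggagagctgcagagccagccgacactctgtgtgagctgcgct
Peg12: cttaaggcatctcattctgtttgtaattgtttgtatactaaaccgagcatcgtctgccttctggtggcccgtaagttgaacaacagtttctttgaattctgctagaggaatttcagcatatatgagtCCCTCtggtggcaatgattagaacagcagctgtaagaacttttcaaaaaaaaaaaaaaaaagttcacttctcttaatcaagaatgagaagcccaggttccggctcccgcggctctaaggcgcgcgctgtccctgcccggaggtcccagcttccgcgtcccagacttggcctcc
Bgn: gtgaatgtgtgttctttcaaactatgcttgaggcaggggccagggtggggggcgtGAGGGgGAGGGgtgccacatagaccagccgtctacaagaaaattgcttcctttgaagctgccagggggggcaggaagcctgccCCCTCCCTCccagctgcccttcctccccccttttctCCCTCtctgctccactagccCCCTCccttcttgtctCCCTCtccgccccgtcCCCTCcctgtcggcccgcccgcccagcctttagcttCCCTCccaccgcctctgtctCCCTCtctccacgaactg
CCCTC occurred 2 times and GAGGG once in the Psors1c2 window. The Magel2 window held 3 CCCTC and no GAGGG, the Peg12 window 1 CCCTC, and the Bgn window, with no ChIP peak, 8 CCCTC and 2 GAGGG. Of the 27025 promoters of the table, 65% held at least 1 of these letter strings, so their presence is common. TATAAA occurred once on the forward strand at Psors1c2 and once at Magel2, and it or its reverse complement occurred in 14.2% of promoters.

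The genes that were lower at day 3 included structural and signalling genes of other cell types. Bgn encodes biglycan, a proteoglycan of the extracellular matrix (chrX:70728983-70741272, plus strand), and had 0.88 FPKM at day 3 and 13.6 FPKM at day 0, a change of -2.96. It was the largest decrease of a named gene with 1 FPKM added; with 0.1 FPKM added Rpl10l passed it, at -3.93 against -3.81. Col10a1, a collagen gene of hypertrophic cartilage, had 0.22 FPKM at day 3 and 2.72 FPKM at day 0. Osr1, a zinc finger gene of intermediate mesoderm and connective tissue, had 0.29 FPKM at day 3 and 1.96 FPKM at day 0. Gjb5, a connexin gene of epithelial and trophoblast gap junctions (chr4:127032053-127035425, minus strand), had 5.26 FPKM at day 3 and 22.9 FPKM at day 0, a change of -1.94. Adora2b, an adenosine receptor gene, had 1.07 FPKM at day 3 and 5.85 FPKM at day 0, and Lrg1, a secreted acute-phase glycoprotein gene, had 0.86 FPKM at day 3 and 6.11 FPKM at day 0. Ezhip, an X-linked inhibitor of the Polycomb methyltransferase Ezh2, had 0.72 FPKM at day 3 and 4.34 FPKM at day 0, a change of -1.63.

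Of 8 listed fibroblast markers, 6 had a pair of rows when rows that pool several transcript IDs were admitted, and 4 of these 6 were lower at day 3 and none was higher. Among all pairs of any rows under 1000 FPKM, 10.6% were lower and 19.1% higher. Of those with a pooled row, as all 4 lower markers had, 16.4% were lower and 20.4% higher. Of the lower markers, Col1a1 had 1.02 FPKM at day 3 and 14.1 FPKM at day 0, Col1a2 had 1.32 FPKM at day 3 and 19.4 FPKM at day 0, and Fn1 had 29.4 FPKM at day 3 and 67.4 FPKM at day 0. The fourth was Vim, with 6.80 FPKM at day 3 and 19.4 FPKM at day 0. Thy1 did not reach the threshold, with a change of -0.84, and had 8.10 FPKM at day 3 and 15.3 FPKM at day 0. Dcn, a single-ID pair, stood at 0.66 FPKM at day 3 and 0.60 FPKM at day 0, under the 1 FPKM minimum, and Lum had no row at either day. For a listed gene, no row means no row that covered enough of the gene to be assigned to it. Shorter rows were not counted, so absence of the RNA was not shown. Col3a1 had no row at day 3 and 4 FPKM at day 0. Summed over the 6 markers with a pair, the level was 47.3 FPKM at day 3 and 136 FPKM at day 0. The labels name no feeder cells, and the part of such cells in the lower genes was not tested. In a bulk library, fewer cells of a type and less RNA per cell cannot be told apart. Of the other cell type lists, streak and mesoderm had 3 of 6 genes with a pair. Of these, Fgf8 was higher, and T and Eomes had changes of -0.33 and -0.47. Mixl1 had a row at day 3 alone (2.97 FPKM), Wnt3 at day 0 alone (7.4 FPKM) and Gsc at neither day. Of the 3 neural genes, Sox1 and Nes had a pair and were higher, and Pax6 had no row at either day. Among all pairs of any rows under 1000 FPKM, 19.1% were higher, and of those with a pooled row 20.4%. The 6 endoderm genes had no pair. Of these, Gata4 (10.9 FPKM) and Gata6 (6.96 FPKM) had a row at day 3 and none at day 0. The other endoderm genes, Sox17 (2.95 FPKM), Sox7 (5.16 FPKM), Foxa2 (4.3 FPKM) and Dab2 (1.19 FPKM), had a row at day 0 and none at day 3. The 2 trophoblast genes had no pair either, Cdx2 without a row at either day and Elf5 with 0.08 FPKM at day 0 alone.

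Named histone and ribosomal protein rows passed the threshold about as rarely as annotated pairs in general, of which 58.0% lay above 0 and 84.2% were neither higher nor lower. The 6 named histone genes, 1 of them a pseudogene, had changes between 0.10 and 0.85, all above 0 and none past the threshold. H1f1, a linker histone gene, had 372 FPKM at day 3 and 298 FPKM at day 0, and H2afx, the variant phosphorylated at DNA breaks, had 180 FPKM at day 3 and 163 FPKM at day 0. After subtraction of the 0.32 median of all pairs the sign of H1f1, H2afx, H2ac11 and H3c10 turned negative. Their changes before it were 0.32, 0.15, 0.12 and 0.10, beside a median of 0.11 over annotated pairs. Of the 6 named rows of the ribosomal protein family, 5 were neither higher nor lower, a share near that of all annotated pairs. Rpl4 had 197 FPKM at day 3 and 177 FPKM at day 0, Rps29 had 120 FPKM at day 3 and 131 FPKM at day 0, and Rps15 had 143 FPKM at day 3 and 225 FPKM at day 0. The exception was Rpl10l, an intronless testis paralogue of the X-linked Rpl10, with 0.41 FPKM at day 3 and 7.67 FPKM at day 0. Histone, ribosomal protein and keratin-associated protein genes have near-identical copies, and how the authors' assembly split reads between them is not known. Krtap4-1 and Krtap4-2, hair keratin-associated genes of such a cluster on chromosome 11, were lower. They had 1.96 and 0.31 FPKM at day 3 against 6.06 and 3.19 FPKM at day 0. The other 3 of the 5 named keratin-associated genes were neither higher nor lower. Among these, Krtap4-7 had 5.1 FPKM at day 3 and 6.15 FPKM at day 0. Of all annotated pairs, 6.21% were lower.

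The named rows of highest level included housekeeping and structural RNAs. The 5 highest rows without a name were 308 to 423 bp long at day 3 and had 1152 to 5444 FPKM at day 3 and 916 to 4377 FPKM at day 0. Rn45s, the precursor of ribosomal RNA left after depletion, reached 7595 FPKM at day 3 and 4562 FPKM at day 0, a change of 0.73. Its assembled row was 4013 bp long at day 3 and 5838 bp at day 0, so the 2 levels cover unequal stretches. Rn7sk, the small nuclear RNA that holds the elongation factor P-TEFb inactive, had 4230 FPKM at day 3 and 2828 FPKM at day 0, a change of 0.58. Hexim1, a protein partner of this RNA in that complex, had 12.6 FPKM at day 3 and 6.70 FPKM at day 0, a change of 0.82. Igfbp2, a secreted insulin-like growth factor binding protein of ES cells (chr1:72870973-72899048, plus strand), had 605 FPKM at day 3 and 431 FPKM at day 0. Aldoa, a glycolytic aldolase gene, had 208 FPKM at day 3 and 109 FPKM at day 0, a change of 0.93. At the assembled start of chromosome 9, next to the unassembled centromeric end, a plus-strand row (chr9:3000002-3001528) had 197 FPKM at day 3 and 649 FPKM at day 0, a change of -1.71. The minus-strand row at the same place had 91.4 FPKM at day 3 and 133 FPKM at day 0. A further plus-strand row there (chr9:3015654-3017210) had 1.42 FPKM at day 3 and 15.3 FPKM at day 0.

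Not every row at the extremes measured the same stretch of RNA at both days. Of the 15 largest and the 15 smallest changes among the 1414 pairs with a mean of at least 5 FPKM and rows of at least 1000 bp, 7 on each side had rows that differed by over 1.5 times in length. The most unequal was a minus-strand pair on chromosome 16, with 1353 bp at day 3 and 330122 bp at day 0, and levels of 12.4 FPKM at day 3 and 1.54 FPKM at day 0. Of the pairs without a gene name whose rows were within 1.5 times of each other in length, a plus-strand row on chromosome 17 (chr17:95083394-95084550 at day 0) had 38.4 FPKM at day 3 and 5.02 FPKM at day 0. A row on chromosome 4 (chr4:118199848-118202833, plus strand) had 12.2 FPKM at day 3 and 1.89 FPKM at day 0. On chromosome 16 (chr16:30717536-30719040 at day 0, plus strand) a row had 8.09 FPKM at day 3 and 42.7 FPKM at day 0.

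Row length moved with the change across the assembled pairs. Their median row length was 646 bp at day 3 and 754 bp at day 0, and 5308 of the 7960 pairs had the shorter row at day 3. Where the day 3 row was at least 1.5 times shorter (1759 pairs) the median change was 0.83 and 40.2% were higher. Where both rows were within 1.1 times of each other (1979 pairs) the median was 0.25 and 9.8% were higher. Where the day 3 row was at least 1.5 times longer (582 pairs) the median was -0.26, 5.50% were higher and 18.7% lower. Spearman's rho between the log2 length ratio and the change was -0.41 over the 7960 pairs, which come from the same 2 libraries and share their assembly. FPKM divides by row length, and the part of length in the change was not tested further. Annotated pairs have equal lengths by their ID, and their median of 0.11 carries no such difference.

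**Figure D3:**
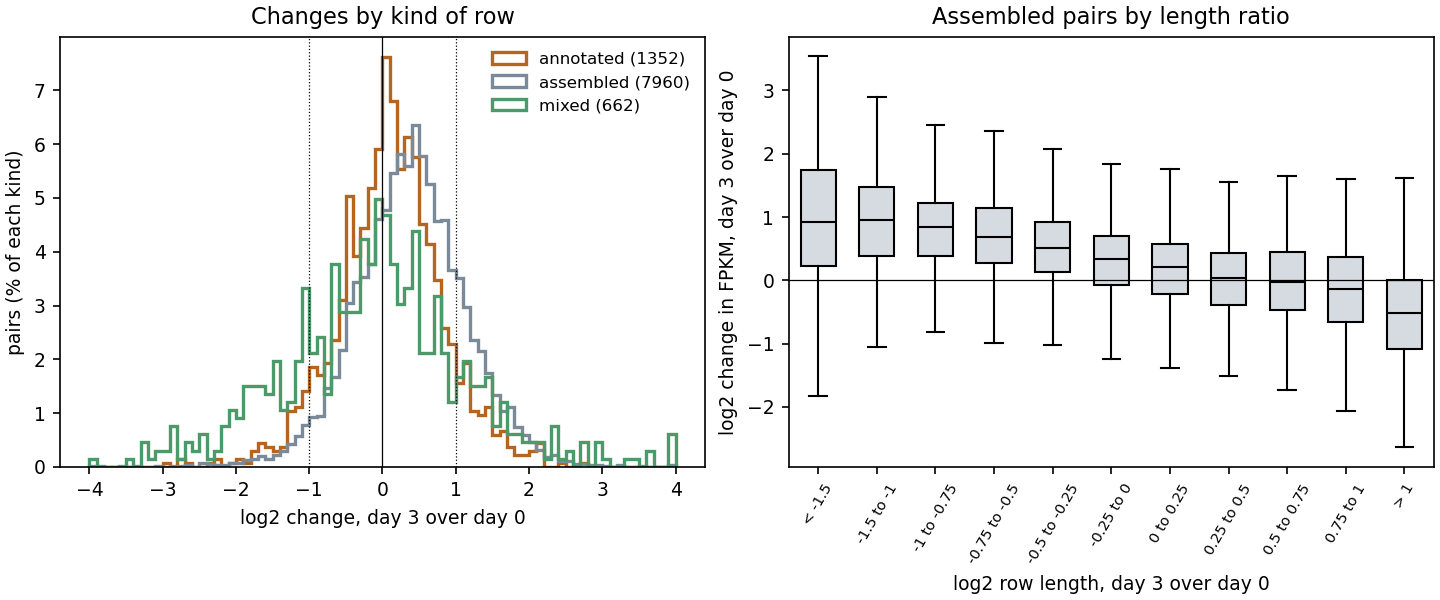
Left, share of pairs (% of each kind) by log2 change, day 3 over day 0, for annotated, assembled and mixed pairs; dotted lines mark -1 and 1 and values beyond 4 are drawn at 4. Right, boxes (median and quartiles, whiskers to 1.5 times the box) of the log2 change of assembled pairs by log2 ratio of row lengths: the median is 0.92 in the bin of the shortest day 3 rows and -0.52 in the bin of the longest.

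The levels ranked alike at the 2 days, more closely for annotated than for assembled rows. Spearman's rho between the day 3 and the day 0 level was 0.78 over annotated pairs and 0.48 over assembled pairs. Rises were most frequent among assembled pairs of 20 to 50 FPKM on average, of which 28.2% were higher. Above 50 FPKM, 8.82% of the 68 assembled pairs were higher and 20.6% lower. Among annotated pairs the share that was higher lay between 1.33% (75 pairs of at least 50 FPKM) and 10.5% (229 pairs of 5 to 10 FPKM). The plus and minus strands had the same median, 0.32 each.

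Many pairs lay opposite another transcript. A row on the other strand overlapped at both days in 6721 of the 9974 pairs, whose median change was 0.37, against 0.23 for the other 3253. Among annotated pairs these medians were 0.12 and 0.11, for 355 and 997 pairs. In 933 places a plus-strand and a minus-strand pair covered each other over at least 50% of the longer row. In 75 of these places both strands were higher at day 3 and in 7 both were lower. In 8 places 1 strand was higher and the other lower. Over the 933 places, Spearman's rho between the changes of the 2 strands was 0.32. Of all 9974 pairs, 17.7% were higher and 5.03% lower, and the rate expected for 2 strands together was not computed. On the X chromosome (chrX:98892230-98893994) the plus strand had 15.2 FPKM at day 3 and 4.08 FPKM at day 0, and the minus strand had 9.85 FPKM at day 3 and 25.7 FPKM at day 0. On chromosome 19 (chr19:24936106-24936543) the plus strand had 40.9 FPKM at day 3 and 7.02 FPKM at day 0, and the minus strand 0.99 FPKM at day 3 and 6.42 FPKM at day 0. On chromosome 16 (chr16:18127109-18128387) both strands were higher: the plus strand had 19.2 FPKM at day 3 and 4.32 FPKM at day 0, and the minus strand 28.7 FPKM at day 3 and 6.21 FPKM at day 0.

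Female ES cells keep both X chromosomes active until X inactivation sets in during differentiation. Here the median of X-linked pairs lay close to that of autosomal pairs. The median change was 0.32 over 304 X-linked pairs and 0.32 over 9669 autosomal pairs, a difference of -0.01. Higher X-linked pairs made up 18.8% and lower ones 5.92%, and the autosomal shares were 17.7% and 5.01%. For annotated pairs the X median was 0.15 (94 pairs) and the autosomal median 0.11 (1258 pairs). The medians of the 19 autosomes ran between 0.21 for chromosome 9 and 0.39 for chromosome 1, and that of X lay within this range. Of 8 named X-linked genes, Itm2a was higher, Bgn and Ezhip were lower, and Sox3, Arxes1, Bex2, Mageh1 and Gm6798 lay between -0.68 and 0.70. Jpx, the activator RNA gene of the X-inactivation centre, was a single-ID pair with 0.42 FPKM at day 3 and 0.15 FPKM at day 0, under the minimum. Xist, the RNA that coats the inactive X, and its antisense partner Tsix had pooled rows of 10.7 and 13.1 FPKM at day 3. Neither had a day 0 row that covered enough of the gene to be assigned to it. Shorter day 0 rows were not counted, so absence of these RNAs at day 0 was not shown.

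Over pairs of all kinds, the share with CTCF on DNA differed by under 2 percentage points between the change classes, and the share with CLIP peaks differed more. A ChIP peak within 1 kb of the row's start was present at day 3 for 20.8% of higher pairs, 19.1% of lower pairs and 20.2% of the rest. In the day 0 libraries these shares were 17%, 16.3% and 17.4% in library 1, and 31.0%, 32.5% and 32.3% in library 2, whose list held 76746 peaks against 45378. Among annotated pairs the lower class had the smallest share in all 3 ChIP libraries. At day 3, 7 of 84 lower annotated pairs (8.33%) had a peak, against 20 of 129 higher ones (15.5%) and 14.6% of the rest. In the day 0 libraries the shares were 8.33% of lower, 12.4% of higher and 12.3% of the rest in library 1, and 22.6%, 29.5% and 26.1% in library 2. CLIP used UV and an anti-FLAG antibody, with 2 libraries per day. A same-strand CLIP peak lay in 3.99% and 5.10% of higher assembled pairs at day 3, in 14.4% and 17% of lower ones and in 6.54% and 8.93% of the rest. In both day 0 libraries the lower assembled pairs had 7.04% and 9.26%, close to the 7.27% and 9.85% of the rest. The lower assembled pairs had longer day 3 rows (median 715 bp) than the higher ones (499 bp), and the part of length in these shares was not tested. Among annotated pairs, those neither higher nor lower had the largest CLIP share in all 4 libraries. At day 3 the shares were 22.5% and 27.9% of higher pairs, 9.52% and 27.4% of lower pairs and 24.8% and 33.1% of the rest. At day 0 they were 17.8% and 24.8% of higher pairs, 23.8% and 25% of lower pairs and 27.0% and 37.2% of the rest.

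**Figure D4:**
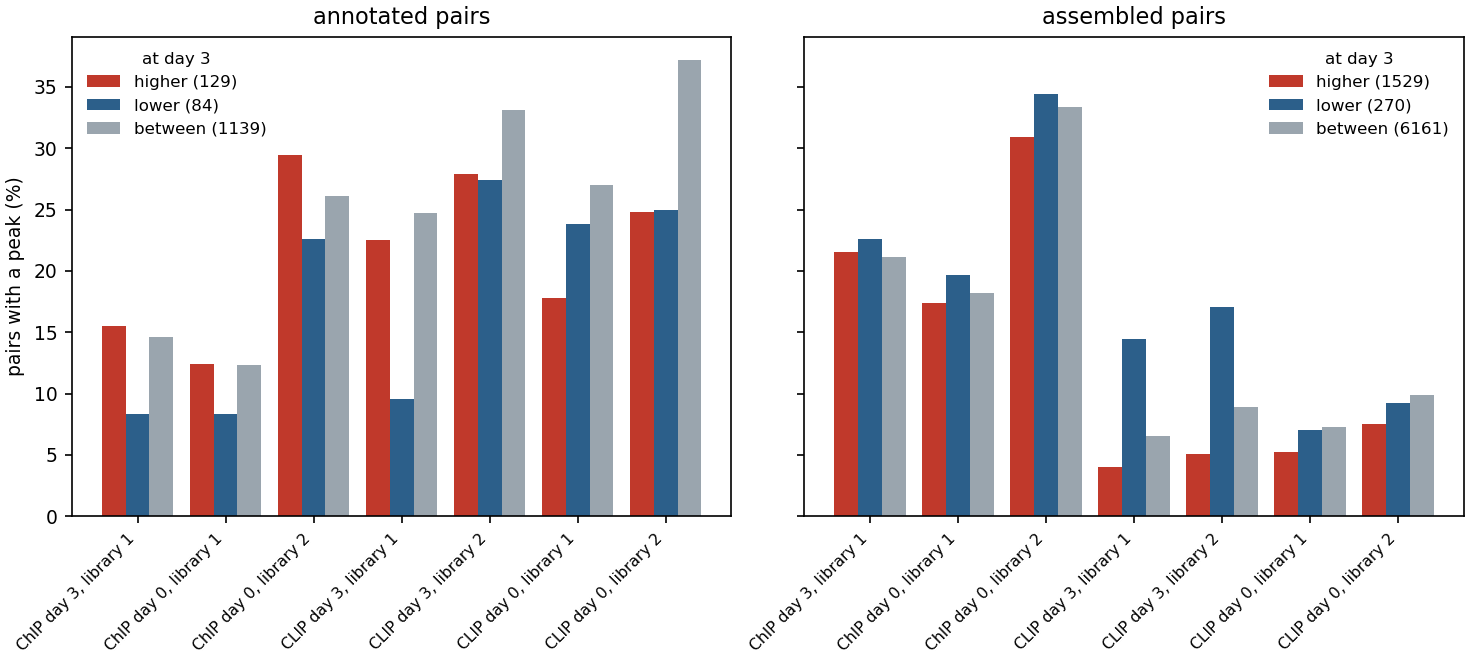
Share of annotated (left) and assembled (right) pairs with a CTCF ChIP peak within 1 kb of the row's start or with a same-strand CLIP peak in the row, per library, for pairs higher (red), lower (blue) or neither (grey) at day 3. In assembled pairs the blue bars of both day 3 CLIP libraries, 14.4% and 17%, stand above the red bars, 3.99% and 5.10%.

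Most genes of the pluripotency and differentiation lists had several transcripts and so fell outside the single-ID rows: 8 of the 123 listed genes were in single-ID pairs, and 101 had a pair when rows that pool transcript IDs were admitted. A pooled row carries the mean FPKM of its transcripts, and this mean depends on which short transcripts the assembly made. List genes at or above 1000 FPKM at a day were therefore set aside. The 7 genes set aside ran both ways. Esrrb of the naive-state list had 40465 FPKM at day 3 and 1887 FPKM at day 0, Huwe1 33997 FPKM at day 3 and 35.1 FPKM at day 0, Meg3 27486 FPKM at day 3 and 43.9 FPKM at day 0, and Tet1 78277 FPKM at day 3 and 49451 FPKM at day 0. The other set-aside genes were lower: Usp9x had 31.9 FPKM at day 3 and 1101 FPKM at day 0, Rian 1123 FPKM at day 3 and 15670.2 FPKM at day 0, and Jarid2 3655 FPKM at day 3 and 16243 FPKM at day 0. Among all pairs of any rows under 1000 FPKM, the shares were the 19.1% higher and 10.6% lower given above. Of those with a pooled row, 20.4% were higher and 16.4% lower. Of 14 naive-state genes, 9 were lower and 1 was higher, with a median of -1.5; the set-aside Esrrb was higher. Klf5 had 22 FPKM at day 3 and 192 FPKM at day 0, Zfp42 (Rex1) had 10.2 FPKM at day 3 and 55.1 FPKM at day 0, and Tbx3 had 4.31 FPKM at day 3 and 36.8 FPKM at day 0. The exception was Nr0b1 (Dax1), with 35.8 FPKM at day 3 and 15.4 FPKM at day 0.

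Of the 10 early differentiation genes, 9 were higher and none was lower, with a median of 1.87. The Wnt-responsive factor Lef1 had 23.7 FPKM at day 3 and 2.51 FPKM at day 0, the formative ligand Fgf5 had 22.1 FPKM at day 3 and 2.68 FPKM at day 0, and the de novo methyltransferase Dnmt3b had 31.5 FPKM at day 3 and 4.60 FPKM at day 0. The homeobox factor Otx2 had 20.7 FPKM at day 3 and 3.50 FPKM at day 0. Of 9 general pluripotency genes, 4 were higher (Lin28a, Utf1, Sall4 and Dppa4) and 1, Nanog, was lower. Nanog had 9.23 FPKM at day 3 and 27.7 FPKM at day 0. Sox2 of this list had no pair. Its pooled rows, not matched to each other, had 13.5 FPKM at day 3 and 29.1 FPKM at day 0. Among genes and targets of LIF, TGF-beta, FGF and p53 signalling, 2 of 14 were higher and 2 lower. The Stat3 target Socs3 was lower, with 2.39 FPKM at day 3 and 7.14 FPKM at day 0, and Spry4, an inhibitor of FGF signalling, was lower, while Nodal and Dusp6 were higher. Of 12 CTCF, cohesin and chromatin genes, 5 were higher and 1 lower, and Ctcf itself had 77.5 FPKM at day 3 and 11.6 FPKM at day 0. Of 7 nuclear and imprinted non-coding RNAs, 1 was higher and 3 were lower, among them Malat1, with 366 FPKM at day 3 and 785 FPKM at day 0. In the X-inactivation centre list 2 of 5 genes were higher and among long X-linked genes 2 of 6, with none lower in either. Of the 2 long X-linked genes set aside, Huwe1 was higher and Usp9x lower. Of the 6 housekeeping genes, 2 were higher and none lower, with a median of 0.64. Because these lists were chosen with earlier results of the same libraries known, their direction is a description and not independent evidence.

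**Figure D5:**
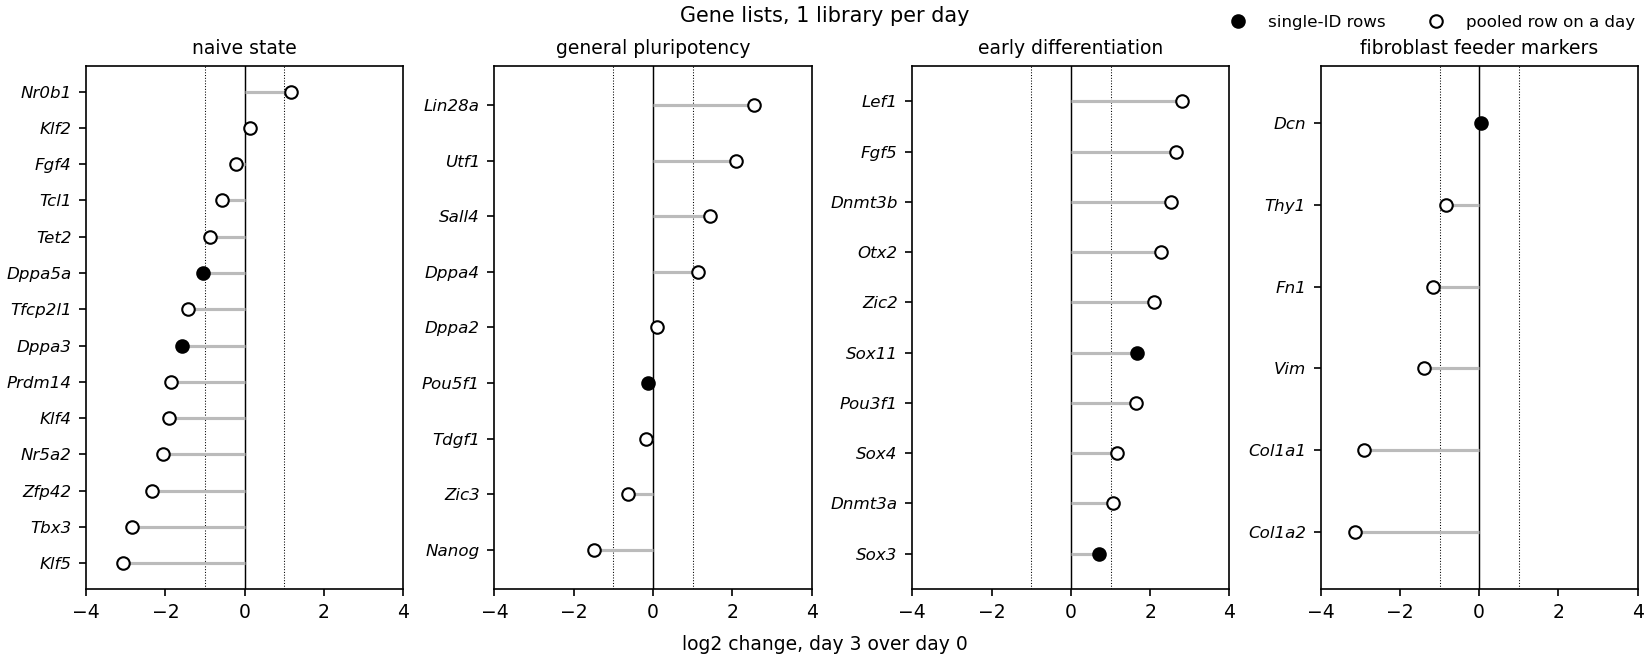
Log2 change, day 3 over day 0, of each listed gene with a pair of rows under 1000 FPKM, in 4 lists. Filled points are single-ID pairs and open points have a pooled row at 1 day or both. All 10 early differentiation genes lie right of 0, and 12 of 14 naive-state genes lie left of it.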

How the data were processed

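The authors deposited 1 transcript list per day, with a value per row taken as FPKM because the submitters' processing notes name Cufflinks 2.1.1; the files do not name the unit, and read depth is unknown. These notes also name TopHat2 2.0.8, Novoalign 3.00.03 and build mm9. CLIP and CTCF ChIP peak lists were deposited with a score per peak, not used here beyond the positions. ChIP inputs and the CLIP controls that had no UV step were left out of the comparison.

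Rows were paired with bedtools 2.31.1 and summarised in Python 3.11.15 with pandas 2.3.3 and SciPy 1.17.1. The pairing was tested on simulated rows. Gene names came from known mm9 positions (both rows covering at least 50% of the gene), or from rows with the same ID at both days whose length matched a RefSeq gene within 2 bp and whose spacing to another such row within 10 Mb matched within 50 bp. This named 281 pairs, and the strand matched in 192 of 192 that could be checked. List genes, the 15 largest and 15 smallest changes and the 10 highest levels per day (rows of at least 1000 bp and a mean of at least 5 FPKM for the changes and levels) were named first, and further named loci were chosen after their values were seen. Members and lists were chosen with earlier results of these data known. A list gene is given without a row at a day when no row covered at least 50% of the gene, and shorter rows were not counted. Alternatives changed the pseudocount, the FPKM minimum, the overlap, the row length, pooled rows and centring.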

Additional observations from a re-analysis of the deposited data

How the results depend on the processing

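No paired analysis was possible because each day had 1 RNA-seq library. With no replicate, counting error and biological spread are both unmeasured, and the cause of the shifts below was not tested. The 1767 higher and 502 lower pairs became 2106 and 656 with a pseudocount of 0.1 FPKM, and 1781 and 521 with no FPKM minimum. With a mean of at least 5 FPKM they were 1597 and 318, with an overlap of 50% of the longer row 1319 and 300, with rows of at least 1000 bp, which leaves fewer pairs, 232 and 149, and with pooled rows 4028 and 2509. Centred on the median they were 930 and 924, so that higher pairs made up 50.2% of all higher and lower pairs in place of 77.9%; with rows of at least 1000 bp this share was 60.9% and with pooled rows 61.6%. Under 3 settings chosen after seeing the data they were 964 and 257 (rows at most 1.5 times apart in length), 129 and 84 (annotated) and 1529 and 270 (assembled). The median change of 0.32 moved to 0.36, 0.27, 0.38, 0.16 and 0.25 with the lower pseudocount, no minimum, 5 FPKM, 1000 bp and pooled rows, to 0 when centred, and to 0.28, 0.11 and 0.39 under the 3 later settings. The X minus autosome difference of -0.01 became 0.10 with rows of at least 1000 bp. Of the list medians, that of early differentiation (2 genes, 1.18) became 0.86 when centred, that of Jpx (0.30) became 1.06 with a pseudocount of 0.1 FPKM, and that of the fibroblast markers (0.05, Dcn alone) became -1.28 with pooled rows. Of 212 named loci, 18 crossed the threshold when centred and 8 with the lower pseudocount. Neither setting could turn the sign of a change past the threshold.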

Other observations

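Some large differences lay outside the named loci; these were chosen after their values were seen. They were the extremes of the 858 pairs with a mean of at least 20 FPKM and rows at most 1.5 times apart in length. Near the distal end of the X chromosome a minus-strand row (chrX:166649921-166650296) had 10.8 FPKM at day 3 and 171 FPKM at day 0. A minus-strand row on chromosome 2 (chr2:181747490-181748023) had 8.65 FPKM at day 3 and 115 FPKM at day 0. Another on chromosome 18 (chr18:90771573-90772031, minus strand) had 14.9 FPKM at day 3 and 129 FPKM at day 0. On chromosome 9 a minus-strand row of 351 bp at day 0 (chr9:35112826-35113176) had 272 FPKM at day 3 and 1400.4 FPKM at day 0, the most abundant of the 5 lowest. In the other direction, a plus-strand row on the X chromosome (chrX:11665370-11665992 at day 0) had 36.0 FPKM at day 3 and 4.08 FPKM at day 0, and a plus-strand row on chromosome 1 (chr1:172995695-172996146 at day 0) had 76.3 FPKM at day 3 and 12.2 FPKM at day 0. All of these rows were assembled and shorter than 1000 bp.

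The unpaired rows were uneven between the days. Of the 17333 eligible day 3 rows, 2930 had no row of any kind on their strand at day 0, and of the 25354 eligible day 0 rows, 11079 had none at day 3.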
